A study of Danio rerio with 24 samples.

Results

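Lipoprotein receptors and lipid transfer genes were followed in the liver of adult male zebrafish. The 8 genes were vldlr, ldlra, scarb1, lpl, lcat, mttp, abca1a and pltp, taken by symbol from a table of 32105 Ensembl genes. Averaged over the 24 libraries, all 8 reached the minimum of 10 counts, as did 11974 genes of the table. The study asked whether a parental diet rich in arachidonic acid (ARA, an n-6 polyunsaturated fatty acid) affects the liver transcriptome of the parents (F0) and of their adult progeny (F1). All fish were wild-type AB zebrafish, and food was withheld before dissection. F1 high ARA fish were progeny of parents fed the high ARA diet, F1 control fish were progeny of parents fed the control diet, and both F1 groups ate the control diet themselves. F0 high ARA fish ate the high ARA diet and F0 control fish the control diet from day 27 post fertilization. F0 fish were mated at day 97. F1 livers were taken at day 140 to 142 and F0 livers at day 154 to 156, so that age and generation differed together. Within the high ARA lineage the feed eaten changed as well, since only the parents received the ARA-rich feed. Age, generation and own feed cannot be separated there. A diet difference means parental feed in F1 and own feed in F0, and the interaction of diet and generation sets these against each other. Each of the 4 groups had 6 libraries, and each library was a pool of 6 male livers from 1 tank.

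Lipoproteins carry triglycerides, phospholipids and cholesterol between gut, liver and other tissues. The liver loads lipid onto apolipoprotein B and secretes the particles, lipases and transfer proteins remodel them in the circulation, and receptors return the remnants to cells. High density lipoprotein takes up cholesterol that cells export and delivers it back to the liver.

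The total count per library on Ensembl genes was 8636978 to 11800367 in F1 high ARA and 5144880 to 8493413 in F1 control, so every F1 high ARA library was deeper than every F1 control library. It was 5973529 to 11646711 in F0 high ARA and 5608588 to 15659321 in F0 control. All 14 hepatocyte marker genes were detected in every library, and together they made up 123436 to 183443 CPM (counts relative to the library total, scaled by TMM). Markers of enterocytes, the absorptive cells of the gut, split the libraries. The enterocyte score (the mean log2 CPM of 18 markers) was 3.11 to 5.86 in 10 libraries and 0.29 to 2.19 in the other 14. The libraries with the high scores were F1 control replicates 7, 8 and 9, F0 high ARA replicates 13 to 16, and F0 control replicates 7, 9 and 11. All 6 F1 high ARA libraries had low scores. The 18 markers summed to 145 to 196 CPM in F1 high ARA, 123 to 854 CPM in F1 control, 102 to 1335 CPM in F0 high ARA and 104 to 2455 CPM in F0 control. Of the gut genes outside the score, muc2.1 was at 0 in 18 libraries, cdx4 in 17, fabp6 in 10, cdx1b in 9 and pou2f3 in 3. The others, npc1l1, apoa4b.1 and sult1st1, were detected in every library. Of 21 enterocyte markers tested in F1 high ARA against F1 control 1 was called, lower, where 1% of all genes tested were called lower. An unadjusted p under 0.05 was found for 12 (19.8% of all genes tested), with a median log2 fold change of -1.36. In F1 high ARA against F0 high ARA 17 of 21 had an unadjusted p under 0.05 (32.9% of all genes tested). The median was -1.76, and of the 21 markers 7 were called lower and 2 higher (sult1st1 and apoa4b.1, both left out of the score). Of all genes tested there, 8.53% were called lower and 8.4% higher. For the 8 genes, calls are therefore given with and without the 10 libraries of high score, and for other genes over all libraries only.

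Levels of different genes were compared per kb of exon, as CPM divided by the gene length in the Ensembl table (mean ± SD over the 24 libraries). The highest was lpl, at 255 ± 75.5 CPM per kb. It encodes lipoprotein lipase, which hydrolyses the triglycerides of circulating particles. Next came ldlra, the low density lipoprotein receptor, at 48.0 ± 25.9 CPM per kb, and mttp, which loads lipid onto apolipoprotein B in the endoplasmic reticulum, at 46.0 ± 5.97 CPM per kb. These neighbours did not differ beyond their spread, whereas lpl stood clear of ldlra. The middle pair was lcat, which esterifies the cholesterol of high density lipoprotein, at 12.5 ± 4.72 CPM per kb, and abca1a, a cholesterol and phospholipid exporter, at 10.1 ± 2.29 CPM per kb, within their spread of each other and clear of mttp. The lowest were scarb1 at 2.80 ± 2.65, vldlr at 1.95 ± 1.12 and pltp at 1.21 ± 0.44 CPM per kb. By mean and SD these 3 stood clear of abca1a and within the spread of their neighbours. In F0 control replicate 7, however, scarb1 reached 11.3 CPM per kb, against 10.5 CPM per kb for abca1a. In the RefSeq table mttp stood just above ldlra, at 41.3 ± 6.85 and 40.9 ± 22.2 CPM per kb, and the rest of the order was the same.

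**Figure D1:**
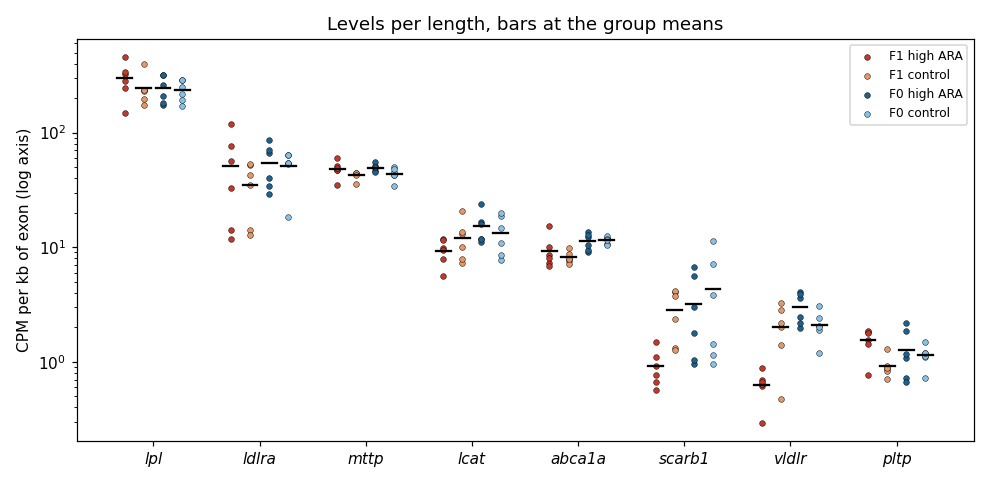
Level of each gene per length (CPM per kb of exon, log axis), with one point per library and a bar at each group mean. From left to right the genes run from lpl at a mean of 255 CPM per kb to pltp at 1.21 CPM per kb, and within a gene the groups run F1 high ARA, F1 control, F0 high ARA and F0 control.

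The genes differed in how far they varied. The most even was mttp, with a coefficient of variation of 13% over the 24 libraries and 1.76 times between its lowest and highest library. The most variable was scarb1, at 94.5% and 20.0 times, followed by vldlr at 57.6% and 13.8 times and ldlra at 54.1% and 9.94 times. Within single groups the coefficient of variation of ldlra was 32.8% to 79.6%, and its highest F1 high ARA library was 9.94 times its lowest.

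**Figure D2:**
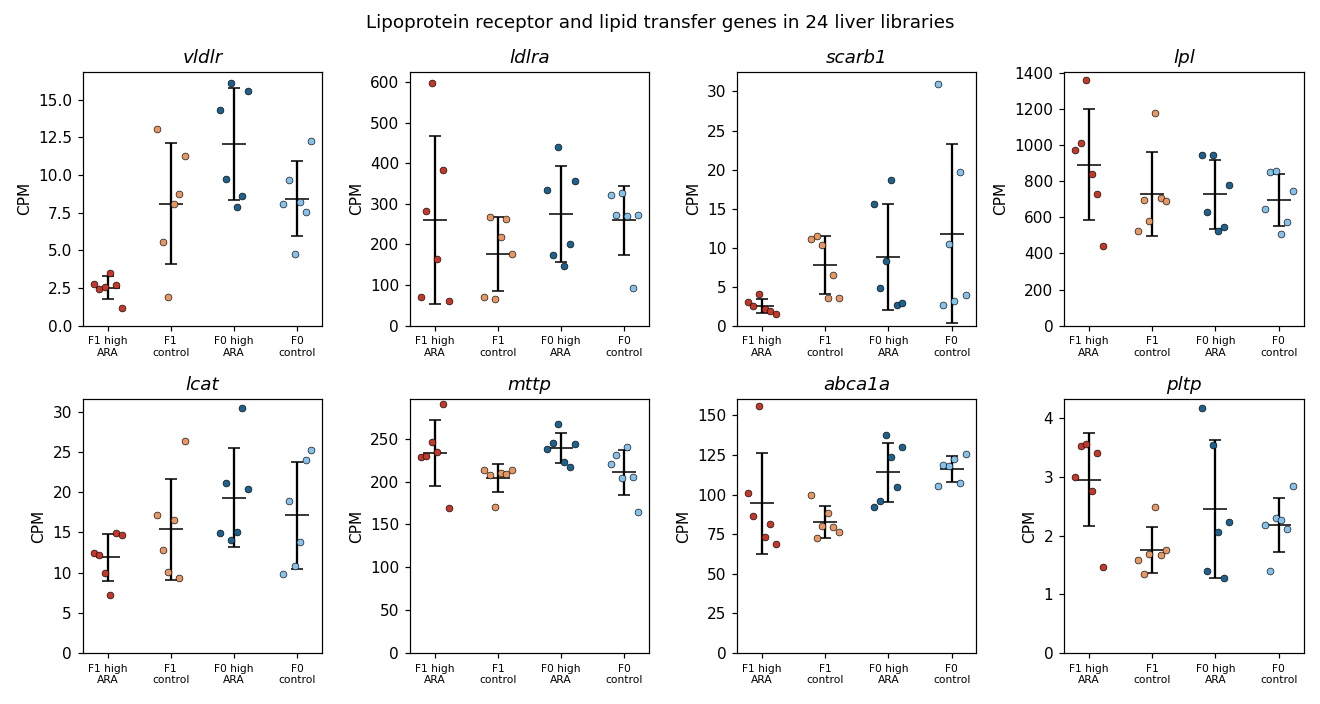
CPM of the 8 genes in each library, by group (F1 high ARA, F1 control, F0 high ARA, F0 control), with linear axes from 0. Points are libraries, the horizontal bar is the mean and the whiskers are 1 SD (n = 6). For vldlr the F1 high ARA points lie between 1.16 and 3.50 CPM, below every F0 high ARA point.

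Among the receptors, vldlr was called in 3 of the 5 tests. It encodes a receptor for triglyceride-rich lipoproteins, and in egg-laying vertebrates a receptor of this type takes up yolk proteins into the oocyte. The gene (ENSDARG00000006257) lies on the plus strand of chromosome 10, from 15296893 to 15347025 (GRCz10). The level of vldlr in F1 high ARA was 1.16 CPM at the lowest, 2.61 at the median and 3.50 at the highest. In F1 control the same 3 values were 1.88, 8.41 and 13.1 CPM. All 6 F1 high ARA libraries were under the F1 control median, and the groups overlapped only through F1 control replicate 9, a library with a high enterocyte score. The gene was lower in F1 high ARA, with a log2 fold change of -1.73 (SE 0.36, 95% interval -2.44 to -1.03, edgeR adjusted p = 0.027), and the exact permutation test gave p = 0.013 (two-sided, 6 against 6). The counts behind these values were low, at 15 to 38 per library in F1 high ARA and 10 to 77 in F1 control. The adjusted p lay between 0.0502 and 0.0659 without any one of F1 high ARA replicates 14, 15 and 17 or F1 control replicates 7, 10, 11 and 12, and the log2 fold change stayed between -1.94 and -1.56 over the 12 such fits. Without the low-count filter the adjusted p was 0.0569.

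In the parents vldlr did not pass the test. F0 high ARA had 7.90, 12.0 and 16.1 CPM as lowest, median and highest value, and F0 control had 4.75, 8.13 and 12.3 CPM. The groups overlapped, and on the log2 scale they differed by 0.52 (SE 0.23, adjusted p = 0.637). The diet difference in F1 minus that in F0 was -2.25 on the log2 scale for vldlr (SE 0.44, adjusted p = 0.0418 for the interaction of diet and generation). Of the 24 fits that left out 1 library, 5 kept that call (without F1 high ARA replicates 13 or 16, F1 control replicate 9 or F0 control replicates 8 or 12), with adjusted p-values over all 24 of 0.00258 to 0.0872 and differences of -2.45 to -2.07. Without the low-count filter the adjusted p was 0.0884, and with the replicate number as a block it was 0.0709.

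Between generations, where own feed differed too, vldlr in F1 high ARA was below vldlr in F0 high ARA in every library, without overlap. On the log2 scale vldlr was at -2.29 there (SE 0.25, adjusted p = 0.000158), and the exact permutation p of 0.00216 was the smallest that 6 against 6 libraries allow. In this comparison 2.94% of all genes tested were lower without overlap, and vldlr ranked 13 by p-value among 12150 genes. Every fit without 1 library kept the call (adjusted p 0.000169 to 0.000639). F1 control against F0 control gave a log2 fold change of -0.05 for vldlr (95% interval -0.71 to 0.61), which did not pass the test.

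The gene vldlr was also lower in F1 high ARA among the libraries of low enterocyte score. Its level there was 1.16 to 3.50 CPM in the 6 F1 high ARA libraries and 8.09 to 11.2 CPM in 3 F1 control libraries. The low-score set leaves out F1 control replicate 9, at 1.88 CPM, through which the full groups overlapped. With the low-score libraries alone, a choice made after seeing the scores, the log2 fold change was -1.95 in F1 (adjusted p = 0.0137). In F1 high ARA against F0 high ARA it was -2.25 (adjusted p = 0.0125), over 6 F1 high ARA and 2 F0 high ARA libraries. The interaction was then -2.20 with an adjusted p of 0.146, over 14 libraries. With the score as a covariate over all 24 libraries it was -2.31 and still called (adjusted p = 0.0319). In mammals endothelial cells express this receptor too. Their most abundant marker, kdrl, was detected in every library. By the edgeR test 0 of 10 endothelial markers were called in F1, where 1.93% of all genes tested were called. An unadjusted p under 0.05 was found for 3 (19.8% of all genes tested), with a median log2 fold change of -0.21. The markers summed to 100.5 to 124 CPM in F1 high ARA and 119 to 133 CPM in F1 control. In F1 high ARA against F0 high ARA 2 of the 10 were called lower, where 8.53% of all genes tested were called lower. An unadjusted p under 0.05 was found for 7 (32.9% of all genes tested), with a median of -0.36. The markers summed to 124 to 149 CPM in F0 high ARA. Their part in the vldlr difference was not tested. In a whole liver, fewer cells of a type and less RNA per cell cannot be told apart.

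The gene scarb1 encodes the scavenger receptor that takes up cholesteryl esters from high density lipoprotein, and it is expressed in the gut as well as in the liver. It (ENSDARG00000101557) lies on the plus strand of chromosome 10, from 44853122 to 44899915. The lowest, median and highest levels of scarb1 were 1.55, 2.34 and 4.08 CPM in F1 high ARA and 3.51, 8.39 and 11.5 CPM in F1 control. Of the 6 F1 high ARA libraries, 5 lay below every F1 control library. Its log2 fold change of -1.65 passed the test (SE 0.34, 95% interval -2.31 to -0.98, adjusted p = 0.0262), with an exact permutation p of 0.00649 (two-sided). The adjusted p was 0.0536 to 0.0641 without any one of F1 high ARA replicates 16 and 17 or F1 control replicates 7 and 8, and 0.152 when all 24 libraries shared one estimate of the spread.

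The level of scarb1 was higher where the enterocyte score was high. In the 10 libraries of high score it had 4.87 to 31.0 CPM (median 11.3), and in the 14 of low score 1.55 to 6.44 CPM (median 2.94). For vldlr the same ranges were 1.88 to 16.1 CPM and 1.16 to 15.6 CPM. Within the low-score libraries it had 1.55 to 4.08 CPM in F1 high ARA, 3.51 to 6.44 CPM in F1 control, 2.64 to 2.88 CPM in F0 high ARA and 2.64 to 3.91 CPM in F0 control. These ranges overlapped for F1 high ARA and F1 control. The fit on low-score libraries alone gave a log2 fold change of -0.87 in F1 (adjusted p = 0.269). With the score as a covariate over all 12 libraries scarb1 was at -1.24 and still called (adjusted p = 0.0368). The part of enterocyte transcripts in the scarb1 difference was not tested beyond these values.

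On log2 CPM with group means removed, Pearson's r of scarb1 with the score was 0.88 over all 24 libraries (permutation p = 2e-05, adjusted p = 0.00016 over 8 genes). Spearman's rho was 0.87 (permutation p = 3e-05, adjusted p = 0.00024). None of the other 7 genes passed after adjustment, with lcat at r = -0.50 (permutation p = 0.0323, adjusted p = 0.129). Since the scores fell into separate clusters, the relation was also computed within each of them in the same way. For scarb1 over the 10 high-score libraries Pearson's r was 0.88 (permutation p = 0.0364, adjusted p = 0.583 over 16 relations) and Spearman's rho was 0.76 (permutation p = 0.0871, adjusted p = 0.883). Without the 2 libraries farthest from the median score r was 0.84. Over the 14 low-score libraries r was -0.09 (permutation p = 0.787, adjusted p = 0.92) and rho was -0.10 (permutation p = 0.771, adjusted p = 0.883). Within the clusters the other 7 genes gave r between -0.48 and 0.63, none of which passed after adjustment.

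**Figure D3:**
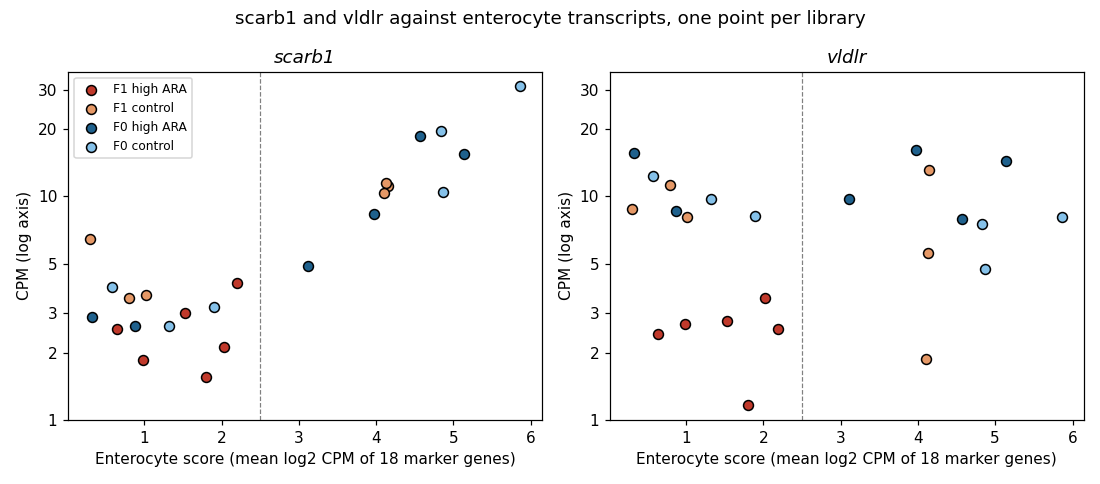
CPM of scarb1 (left) and vldlr (right) on log axes against the enterocyte score (mean log2 CPM of 18 marker genes), with one point per library coloured by group and a dashed line at a score of 2.5. The scarb1 points right of the line reach 4.87 to 31.0 CPM and those left of it 1.55 to 6.44 CPM, whereas the F1 high ARA points of vldlr lie below the other libraries of low score.

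Between generations, and so also with a different own feed, scarb1 in F1 high ARA was lower than in F0 high ARA. In F0 high ARA it had 2.64, 6.59 and 18.7 CPM as lowest, median and highest value. That difference was -1.84 on the log2 scale (SE 0.52, adjusted p = 0.0307, exact permutation p = 0.0216). In the low-score libraries it was -0.13 (adjusted p = 0.878), over 6 F1 high ARA and 2 F0 high ARA libraries. With the score as a covariate it was -0.65 (adjusted p = 0.195). The call was also lost without any one of F1 high ARA replicates 14, 16, 17 and 18 or F0 high ARA replicates 13, 15 and 16, with adjusted p-values up to 0.0664, and without the low-count filter (0.0792). F0 control held the highest level of scarb1 in the study, 31.0 CPM in replicate 7, which also had the highest enterocyte score. Neither F0 high ARA against F0 control (log2 fold change -0.44, 95% interval -1.87 to 1.00) nor F1 control against F0 control (-0.64, 95% interval -1.92 to 0.64) passed the test. For scarb1 the diet difference in F1 minus that in F0 was -1.20 (95% interval -2.89 to 0.49, adjusted p = 0.583), so that a difference between the generations was not shown.

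The low density lipoprotein receptor ldlra (ENSDARG00000029476) lies on the plus strand of chromosome 3, from 19149569 to 19173949, and did not pass the test in any comparison. Its lowest, median and highest levels were 60.1, 224 and 597 CPM in F1 high ARA and 65.0, 197 and 268 CPM in F1 control. They were 146, 267 and 439 CPM in F0 high ARA and 93.5, 273 and 325 CPM in F0 control. All 4 groups overlapped, and the 3 highest F1 high ARA libraries lay above every F1 control library while the lowest lay below them all. The log2 fold change in F1 was 0.51, with a 95% interval of -0.64 to 1.66 that holds differences of either sign. It was 0.09 in F0 (95% interval -0.56 to 0.74), -0.55 in F1 control against F0 control (-1.35 to 0.25) and -0.11 in F1 high ARA against F0 high ARA (-1.17 to 0.96).

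With vldlr and scarb1, 2 of the 8 genes were called in F1, both lower, where 1.93% of all genes tested were called in either direction and 1% were called lower. The 8 genes were chosen with earlier results of these data known, so such counts, here and below, do not test enrichment. In F0 none of the 8 was called by the edgeR test, as none of 12194 genes was (0%). At an unadjusted p under 0.05 there were 906 genes (7.43%) in F0, and vldlr was the only one of the 8. DESeq2 called the same of the 8 genes as the edgeR test in every comparison and for the interaction, and so none in F0. The interaction called vldlr alone among the 8, against 0.109% of 11974 genes.

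**Figure D4:**
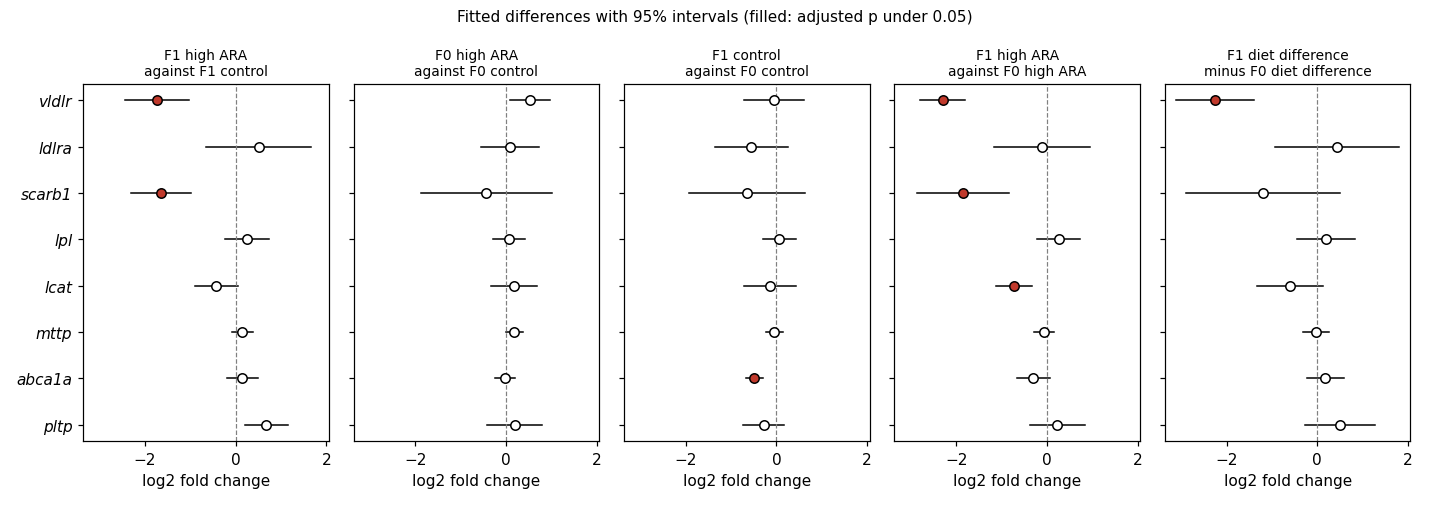
Log2 fold change of the 8 genes (rows) in the 4 comparisons and for the interaction (panels), as fitted by edgeR, with bars for the 95% interval and filled points for an adjusted p under 0.05. In the panel of F1 high ARA against F1 control vldlr and scarb1 are filled, at -1.73 and -1.65, and in that of F0 high ARA against F0 control no point is filled.

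The lipase gene lpl was not called in any of the 5 tests. The row used (ENSDARG00000087697, chromosome 22, plus strand, 15598222 to 15603932) now carries the RefSeq symbol lpla. A second row named lpl, on chromosome 19, had a mean count of 0.958 and was left out. The lowest, median and highest levels of the lpl row used were 439, 905 and 1359 CPM in F1 high ARA, and in F1 control 524, 694 and 1176 CPM. F0 high ARA had 523 to 945 CPM and F0 control 510.1 to 856 CPM, and all groups overlapped. The F1 log2 fold change was 0.25 (95% interval -0.23 to 0.73), and the other 3 comparisons gave 0.06 to 0.26. Fat cells are rich in this lipase. Of 11 adipocyte genes found in the table, cidec, fabp11a, lipea and pparg were detected in every library. Of the others, cidea was at 0 in 1 of the 24 libraries, adipoqb in 9 and plin1 in 13. For fabp11b this was so in 20, for adipoqa and lepa in 21 and for lepb in 23. The 4 genes detected in every library summed to 41.2 to 49.9 CPM in F1 high ARA, 39.8 to 56.5 CPM in F1 control, 44.8 to 61.2 CPM in F0 high ARA and 35.7 to 55.5 CPM in F0 control. The part of fat cells in the level of lpl was not tested.

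The gene lcat, for the plasma enzyme that esterifies cholesterol, was lower in F1 high ARA than in F0 high ARA. Age, generation and own feed differed together there. The gene (ENSDARG00000099424) lies on the minus strand of chromosome 25, from 13620337 to 13631711. Its lowest, median and highest levels were 7.19, 12.3 and 14.9 CPM in F1 high ARA and 14.1, 17.7 and 30.4 CPM in F0 high ARA. The groups overlapped narrowly, with 4 F1 high ARA libraries below every F0 high ARA library. On the log2 scale lcat was at -0.73 (SE 0.20, adjusted p = 0.0266, exact permutation p = 0.013). By p-value lcat ranked 1302 among 12150 genes, of which 16.9% were called. The call was lost without F1 high ARA replicate 15 (adjusted p = 0.057) and without F0 high ARA replicate 17 (adjusted p = 0.0557), and it was also lost with library totals (0.0508) and with all 24 libraries in one fit (0.0535). In the low-score libraries the difference was -1.09 (adjusted p = 0.0556), over 6 F1 high ARA and 2 F0 high ARA libraries. With the enterocyte score as a covariate over all 12 libraries it was -0.96 and still called (adjusted p = 0.00827). Against F1 control, lcat in F1 high ARA was at -0.42 (95% interval -0.90 to 0.05), which did not pass the test.

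Lipid loading of nascent particles depends on mttp (ENSDARG00000008637, chromosome 1, minus strand, 11419101 to 11439741), which was not called in any comparison. It had 169.5, 232 and 290 CPM as lowest, median and highest value in F1 high ARA and 171, 209.6 and 213 CPM in F1 control. F0 high ARA had 217, 241 and 267 CPM and F0 control 165, 213 and 239.9 CPM. Of the F1 high ARA libraries 5 lay above every F1 control library and the remaining one below all of them. The log2 fold changes were 0.15 (95% interval -0.08 to 0.38) in F1 and 0.19 (SE 0.10, adjusted p = 0.72) in F0. The exact permutation p was 0.167 in F1 and 0.0476 in F0, where all 6 F0 high ARA libraries lay above the F0 control median. In F1 high ARA against F0 high ARA mttp was at -0.07 in the Ensembl counts (edgeR adjusted p = 0.726). It was at -0.28 in the RefSeq counts there (edgeR adjusted p = 0.0987).

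The exporter gene abca1a (ENSDARG00000074635, chromosome 1, plus strand, 51925841 to 51993670) was the only one of the 8 called between the control groups, where 2.34% of 11729 genes were called and 1.59% were called lower. Its lowest, median and highest levels were 72.5, 79.9 and 99.97 CPM in F1 control and 106, 118 and 125 CPM in F0 control. The groups did not overlap, which was so for 1.46% of genes in this direction. On the log2 scale the difference was -0.49 (SE 0.09, adjusted p = 0.0174), with the smallest possible exact permutation p of 0.00216. Without F1 control replicate 8 the adjusted p was 0.0539, and in the other 11 such fits the call was kept. With all 24 libraries in one fit the adjusted p was 0.0744, and with the replicate number as a block it was 0.0571. In the low-score libraries the difference was -0.56 (adjusted p = 0.251), over 3 F1 control libraries at 76.3 to 88.4 CPM and 3 F0 control libraries at 119 to 125 CPM. With the enterocyte score as a covariate over all 12 libraries it was -0.50 and still called (adjusted p = 0.0214).

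The same gene had 69.0, 83.8 and 156 CPM in F1 high ARA and 92.0, 114 and 138 CPM in F0 high ARA. Apart from F1 high ARA replicate 15, at 156 CPM, the F1 high ARA libraries reached 101 CPM at most. The difference of -0.30 (95% interval -0.67 to 0.07) did not pass the test with that replicate included, and without it abca1a was called at -0.50 (adjusted p = 0.0339). The generation difference of abca1a in the high ARA lineage, which includes the change of own feed, minus that in the control lineage was 0.18 (95% interval -0.24 to 0.60, adjusted p = 0.767). Macrophages also use this exporter. Of 15 macrophage and leukocyte markers the edgeR test called 0 in F1 control against F0 control, where 2.34% of all genes tested were called. An unadjusted p under 0.05 was found for 7 of the markers (18.1% of all genes tested), with a median log2 fold change of -0.51. Their sums were 139 to 262 CPM in F1 control and 152 to 404 CPM in F0 control. Their part in the abca1a difference was not tested.

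The least abundant gene, pltp (ENSDARG00000104495, chromosome 6, plus strand, 55347375 to 55383496), encodes the phospholipid transfer protein of plasma. It had 1.47, 3.21 and 3.57 CPM as lowest, median and highest value in F1 high ARA, and in F1 control 1.35, 1.68 and 2.49 CPM. Of the F1 high ARA libraries 5 lay above every F1 control library, and replicate 18 lay within their range. The log2 fold change of 0.68 (SE 0.25, adjusted p = 0.146, exact permutation p = 0.0195) did not pass after adjustment over all genes. Without F1 high ARA replicate 18 it was 0.83 with an adjusted p of 0.0453. The counts were 19 to 37 per library in F1 high ARA and 8 to 20 in F1 control.

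When F1 high ARA was set against F0 high ARA, 3 of the 8 genes were called, all lower (vldlr, scarb1 and lcat), where 16.9% of all genes tested were called in either direction and 8.53% were called lower. The 8 genes had a median log2 fold change of -0.20 in this comparison, against 0.00 for all genes. The median was 0.15 in F1 high ARA against F1 control, 0.13 in F0 high ARA against F0 control and -0.21 in F1 control against F0 control, against 0.00, -0.02 and -0.01 for all genes. The F1 comparisons share libraries with the comparisons between generations.

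A further 6 lists covered genes around these 8. In F1 high ARA against F1 control 1.93% of all genes tested were called, 0.932% higher and 1% lower. Of the 101 list genes tested there, only srebf1, npc2 and mgll were called. The edgeR test called 0 of 15 receptor and endocytosis genes, 0 of 17 assembly and transfer genes and 0 of 18 apolipoproteins. An unadjusted p under 0.05 was found for 3, 3 and 7 of them, and for 19.8% of all genes tested. Of 19 regulators, srebf1, a transcription factor of lipid synthesis, was called higher (log2 fold change 1.08, adjusted p = 0.0183). Its mean level was 4.39 ± 0.60 CPM (SD, n = 6) in F1 high ARA, against 1.97 ± 0.64 CPM (SD, n = 6) in F1 control. Of 17 sterol efflux and trafficking genes, npc2, which carries cholesterol out of lysosomes, was called lower at 91.7 ± 4.46 CPM against 120.2 ± 13.4 CPM in F1 control (log2 fold change -0.43). Of 15 lipases and their regulators, mgll, a monoacylglycerol lipase, was called lower (-0.69, adjusted p = 0.0387), but not in the RefSeq counts (adjusted p = 0.0793). Of the 104 genes of the 6 lists tested in F0 the edgeR test called 0, against 0% of all genes. An unadjusted p under 0.05 was found there for 13, against 7.43% of all genes. Of the 104 tested for the interaction the edgeR test also called 0, against 0.109% of all genes. An unadjusted p under 0.05 was found for 17 of these, against 12.9% of all genes.

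Between the control groups the lists held 3 called apolipoproteins of 19, all higher in F1 control, where 0.759% of all genes tested were called higher. They were apoa4b.1 (log2 fold change 0.69), apof (0.995) and apoa4b.3 (1.15), and apoa4b.1 reached 3073 ± 204 CPM in F1 control, against 1907 ± 360 CPM in F0 control (mean ± SD). The gene srebf1 was lower in F1 control (-1.26), as was dgat2 (-1.002), which makes triglycerides, while mgll was higher (1.07, adjusted p = 0.0906 in the RefSeq counts). For F1 high ARA against F0 high ARA, 5 of 17 sterol efflux and trafficking genes and 5 of 19 regulators were called lower and 0 of either list higher, where 8.53% of all genes tested were called lower and 8.4% higher. The sterol list includes npc1l1, which is also on the enterocyte list. A high enterocyte score was found in 0 F1 high ARA and 4 F0 high ARA libraries, and its part in these calls was not tested. The nuclear receptor gene rxraa was at -1.76 (11.1 ± 4.16 CPM in F1 high ARA, against 36.9 ± 8.61 CPM in F0 high ARA), and pparg was at -0.98. The receptor gene rxrba was at -1.19 in the Ensembl and -0.36 in the RefSeq counts. Among the other lists creb3l3a, a liver transcription factor of triglyceride metabolism, was at -1.11, dgat2 at -1.17 and apof at 1.61. In this comparison 4 of 16 receptor and endocytosis genes were called, 3 lower and 1 higher. Of 18 apolipoproteins 1 was called lower and 3 higher. Of 15 lipases and their regulators 2 were called lower and 1 higher, and of 17 assembly and transfer genes 1 lower and 1 higher.

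The genes most alike in pattern were taken by Pearson's r of log2 CPM over the 24 libraries, among 11749 genes with a symbol. This is a description, since the libraries share depth, groups and enterocyte content. For scarb1 they were s100a10a (r = 0.96), pls1 (0.94), a plastin of the intestinal brush border, and ace (0.93). The nearest genes for vldlr were cobl (0.86), emilin1b (0.85) and phactr2 (0.82), and with group means removed these values were 0.71, 0.53 and 0.58. For ldlra they included si:dkey-201c13.2 and ulk2, both at 0.88, and for lcat tmem54b (0.86), pkp3b (0.81) and rasa1b (0.81). For lpl they were hif1al (0.83), slc38a5b (0.78) and slc25a48 (0.77), and for mttp slc26a2 (0.75), bahd1 (0.74) and plin3 (0.72). The exporter abca1a had hopx (0.75), ipo11 (0.75) and ebi3 (0.75), and pltp had mat1a (0.75), slc26a2 (0.75) and cdo1 (0.73). With group means removed these values were 0.56, 0.49 and 0.55 for abca1a and 0.66, 0.67 and 0.69 for pltp. Among the 8 genes themselves the highest r was that of lpl with pltp (0.66), followed by ldlra with lpl (0.56) and ldlra with mttp (0.54).

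For 3 of the genes the Ensembl model runs past the RefSeq model at the 3′ end, by 1779 bases for mttp, 1260 for ldlra and 1074 for lpl, so the RefSeq table held only part of their reads. Over the 24 libraries the RefSeq count was 53.3% of the Ensembl count for mttp, 62.2% for ldlra and 65.8% for lpl. This share was examined after the data had been seen. For mttp it was 47.7% to 52.2% in F1 high ARA and 56.5% to 59.5% in F0 high ARA, without overlap, a difference of -8.02 percentage points (exact permutation p = 0.00216, adjusted p = 0.00866 over 12 tests). For ldlra the share was 55.1% to 61.9% in F1 high ARA and 65.4% to 70.3% in F0 high ARA, also without overlap (-8.31 points, exact permutation p = 0.00216, adjusted p = 0.00866). For lpl the difference had the opposite sign, at 2.69 points (exact permutation p = 0.0238, adjusted p = 0.0445). In F1 control against F0 control mttp was at -6.68 points (exact permutation p = 0.026, adjusted p = 0.0445). Of 312 genes with a like share, 8.65% did not overlap in F1 high ARA against F0 high ARA and the median difference was -1.997 points. In F1 control against F0 control the median difference of the 312 genes was -1.59 points.

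In the parents the share for ldlra was 65.4% to 70.3% in F0 high ARA and 55.1% to 64.8% in F0 control, without overlap (5.34 points higher, exact permutation p = 0.00216, adjusted p = 0.00866). Of the 312 genes, 2.24% did not overlap in F0, and the median difference was 2.20 points. For mttp the F0 difference was 3.89 points (exact permutation p = 0.0238, adjusted p = 0.0445), with overlap. The log2 fold change of mttp in F0 was 0.28 in the RefSeq counts (unadjusted p = 0.00873, adjusted p = 0.498) and 0.19 in the Ensembl counts. For lpl the share was 68.3% in F1 high ARA and 64.8% in F1 control (3.48 points higher, exact permutation p = 0.026, adjusted p = 0.0445), with overlap. The 312 genes had a median difference of 1.68 points in that comparison, in the same direction.

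**Figure D5:**
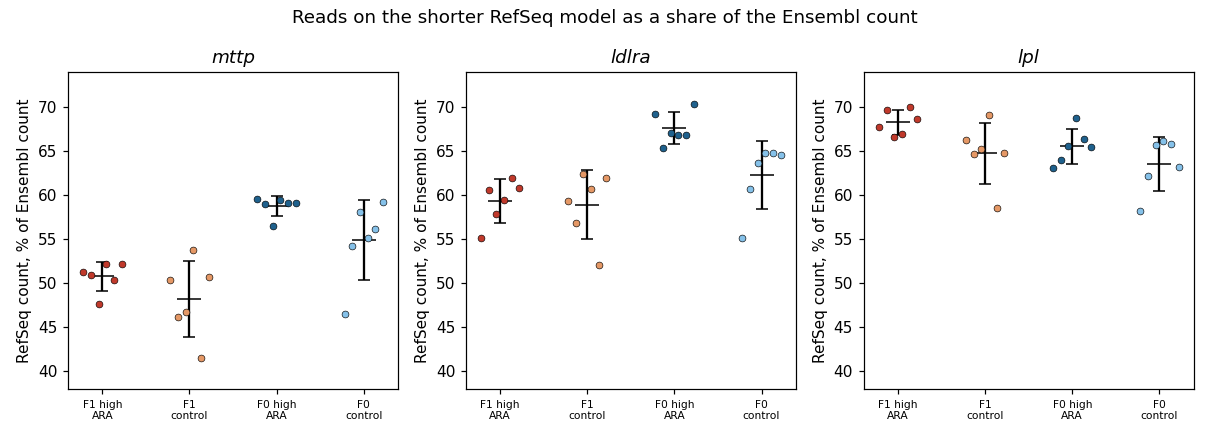
Reads on the RefSeq model as a percentage of the Ensembl count for mttp, ldlra and lpl, by group, on an axis from 38% to 74%. Points are libraries, the horizontal bar is the mean and the whiskers are 1 SD (n = 6). The F0 high ARA points of ldlra, 65.4% to 70.3%, lie above every F0 control point.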

How the data were processed

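Liver RNA was sequenced as single-end stranded libraries. Reads were aligned by the authors (HISAT2, GRCz10), and the deposited values are raw counts of reads per gene, made with featureCounts v1.5.0-p3 on Ensembl release 85 and on RefSeq. Per the file headers the counting ignored strand and left out multi-mapping reads and reads on several genes, so that overlapping genes and antisense reads cannot be separated. Of the 36 count columns of each annotation, 12 belong to no library used here and were not used, nor were the authors' own comparison results, which hold fold changes and p-values.

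CPM were counts relative to TMM-scaled library totals. Separate fits on the 12 libraries of each comparison used edgeR 4.0.16 (quasi-likelihood F test, robust, TMM, low-count filter at a mean of 10), and the interaction of diet and generation on all 24, with Benjamini-Hochberg adjustment over all genes tested and a call at an adjusted p under 0.05. A standard error was the size of the log2 fold change divided by the square root of F. A 95% interval was 1.96 standard errors to either side. The factor 1.96 is the normal quantile, so the intervals are narrower than the F test with its few libraries implies. Exact permutation tests (two-sided, log2(CPM + 0.5), numpy 2.4.6) compared 6 against 6 libraries, with 0.00216 as the smallest possible p. Correlations (scipy 1.17.1) used 100000 resamples. Intervals and counts cover the spread between pooled tanks.

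Named genes were the 8 genes, up to 6 called genes with the smallest p per comparison from the 6 lists around them, the 3 genes most alike in pattern to each of the 8, and markers at 0 or highest in their list. The gut genes outside the enterocyte score were named as well. The 8 genes and all lists were chosen with earlier results of these data known. Alternatives were DESeq2 1.42.0, its size factors, library totals, no low-count filter, RefSeq counts, calls in both tables, the enterocyte score as a covariate, the replicate number as a block, all 24 libraries in one fit and each library left out. The limit of 2.5 on the enterocyte score was set after seeing the scores. The numbering of replicates recurs in both generations. Deviations of same-numbered libraries from their group means had r from -0.36 to 0.27 over 12 pairs, 4 above 0.1. These values cannot settle whether same-numbered libraries are related.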

Additional observations from a re-analysis of the deposited data

Results flagged for a closer look

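In 5 of the 32 groups of 6 libraries examined, 1 library stood far from the other 5 for one of the genes. For independent, normally distributed values chance alone flags about 1 group in 20. The 32 groups share libraries, and F1 control replicate 10 stood out for both lpl and pltp. The 5 groups therefore cannot be set against that rate. The exporter abca1a had 156 CPM in F1 high ARA replicate 15, against 69.0 to 101 CPM in the other libraries of that group. In F1 control replicate 10, lpl had 1176 CPM against 524 to 709 CPM in the others, and pltp had 2.49 CPM against 1.35 to 1.75 CPM. In F1 control replicate 9, mttp had 171 CPM against 208 to 213 CPM in the others. The receptor ldlra had 93.5 CPM in F0 control replicate 11, against 269 to 325 CPM in the others.

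The diet difference of vldlr was called as differing between the generations, at -2.25 on the log2 scale for F1 minus F0 (edgeR adjusted p = 0.0418). It was -1.73 in F1, for parental feed, and 0.52 in F0, for own feed. Only 5 of the 24 fits without 1 library kept this interaction call, and it was lost without the low-count filter (edgeR adjusted p = 0.0884).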

How the results depend on the processing

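Of 336 values under settings other than leaving out a library, 312 kept their direction and side of the threshold, 15 lost a call, 0 gained one and 9 changed sign. Of 576 values without 1 library these numbers were 507, 40, 2 and 27. In F1 high ARA against F1 control 1 of the 8 genes was called without the low-count filter (scarb1, with vldlr at an adjusted p of 0.0569), 1 with all 24 libraries in one fit (vldlr) and 1 with the libraries of low enterocyte score alone (vldlr). Between the control groups 0 were called with all 24 libraries in one fit (abca1a at an adjusted p of 0.0744) and 0 with the low-score libraries. In F1 high ARA against F0 high ARA 1 was called with the low-score libraries (vldlr), and the interaction gave 0 without the low-count filter and 0 with the low-score libraries. Fewer libraries entered the low-score fits, and otherwise the cause was not tested. Over the fits without 1 library the number called was 0 to 3 in F1 (0 without F1 high ARA replicate 17 or F1 control replicate 7, and 3 without F1 high ARA replicate 18), 0 to 1 between the controls, 2 to 3 in F1 high ARA against F0 high ARA and 0 to 1 for the interaction. With the replicate block 0 of the 8 genes were called between the controls (abca1a at an adjusted p of 0.0571), 3 in F1 high ARA against F0 high ARA, and 0 for the interaction (vldlr at 0.0709). Of 12 libraries 2 correlated best with their own number, which cannot settle whether the numbers pair the libraries.

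Only differences that were not called changed sign. With the enterocyte covariate scarb1 was at 0.16 and lpl at -0.0074 between the controls, and with the low-score libraries scarb1 was at 0.50 and mttp at 0.020 there. The low-score libraries also gave mttp 0.022 in F1 high ARA against F0 high ARA, and lpl -0.11 and pltp -0.31 in F0. The interaction of mttp was 0.088 with library totals and 0.013 without the low-count filter. Without 1 library, abca1a ranged from -0.050 to 0.23 in F1, and in F0 ldlra ranged from -0.10 to 0.21, scarb1 from -0.81 to 0.14, lpl from -0.033 to 0.14, abca1a from -0.086 to 0.026 and pltp from -0.029 to 0.35. Between the controls vldlr ranged from -0.22 to 0.15, lpl from -0.12 to 0.15, lcat from -0.37 to 0.0075 and mttp from -0.10 to 0.0029. In F1 high ARA against F0 high ARA ldlra ranged from -0.55 to 0.10 and mttp from -0.14 to 0.013, and for the interaction mttp ranged from -0.094 to 0.050 and abca1a from -0.019 to 0.26.

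Depth limits pltp, vldlr and scarb1 most, with counts as low as 8, 10 and 20 per library.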
